A study of Mus musculus with 8 samples.

Results

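Potassium channel subunits are the products of the genes whose mouse symbols start with Kcn. The count tables listed 98 such symbols, and the 76 with at least 10 counts summed over the 8 libraries are described here, out of 24538 gene rows in all. By role these 76 are 25 pore-forming voltage-gated subunits, 5 modifier subunits, 13 auxiliary subunits, 4 pores of the Slo family, 4 small- and intermediate-conductance calcium-activated pores, 13 inward rectifiers and 9 tandem-pore leak channels. The remaining 3 carry a Kcn symbol without being channel subunits: Kcnq1ot1 and Kcnmb4os2 are antisense transcripts, and Kcnrg encodes a regulator of potassium channels. Kcnmb4os2 with 10 counts, Kcnq1 with 13 and Kcnk18 with 17 were the lowest genes kept, and Kcng1 with 9, Kcnj1 with 8 and Kcna3 with 3 were the highest left out.

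RNA was sequenced from epidermal cells of Atoh1-GFP mice at postnatal day 0, in 4 groups of 2 libraries each: Merkel and IFE cells of the paw, and Merkel and IFE cells of back skin. All 4 groups carried the Atoh1-GFP allele, a green fluorescent protein reporter of the gene that specifies Merkel cells, and no group was treated. Merkel cells, the touch receptor cells of the epidermis, were sorted as GFP+, EpCAM+ and Sca1-, and IFE cells, an abbreviation the labels do not spell out, as GFP-, EpCAM+ and Sca1+. The labels state neither how many animals went into a library nor whether replicate libraries are from different animals, so the tests see the spread between these libraries and nothing wider.

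Potassium channels set the resting potential and end electrical activity in excitable cells. Voltage-gated pores open on depolarisation, modifier subunits do not conduct alone and change the pores they join, and auxiliary subunits alter gating and traffic. Calcium-activated channels couple potassium efflux to calcium entry, inward rectifiers hold the resting potential, and tandem-pore channels carry leak currents. Merkel cells are excitable, and voltage-gated and calcium-activated potassium currents have been recorded in rodent Merkel cells. In epithelia, inward rectifiers and leak channels are better known for ion transport and volume control.

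The stretch around the gene start is shown for 3 members: Kcna4 and Kcnh8, which were high in Merkel cells, and Kcnj15, which was high in IFE cells. In the tests below, Kcna4 and Kcnh8 were higher at both sites whichever library was left out. Of such members with a window, they had the smallest adjusted p in back skin. Kcnj15 was picked as the only member called lower whose call was kept in this way, and others had larger falls. Each window runs from 250 bases before to 50 after the gene start, 5′ to 3′ on the strand given, from RefSeq on GRCm38.p6. For Kcna4 this start differs from the GENCODE start given below, and the window ends just before the GENCODE start. Capitals mark the E-box letters CANNTG, the core bound by basic helix-loop-helix factors such as Atoh1.
Kcna4 promoter window, chr2:107290339-107290638, plus strand: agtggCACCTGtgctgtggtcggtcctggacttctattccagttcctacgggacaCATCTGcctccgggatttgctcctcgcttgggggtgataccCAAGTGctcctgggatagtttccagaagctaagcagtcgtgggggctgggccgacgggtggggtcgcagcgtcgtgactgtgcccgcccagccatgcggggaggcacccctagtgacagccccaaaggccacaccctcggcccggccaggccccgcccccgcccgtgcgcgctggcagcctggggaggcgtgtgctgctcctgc
Kcnh8 promoter window, chr17:52602459-52602758, plus strand: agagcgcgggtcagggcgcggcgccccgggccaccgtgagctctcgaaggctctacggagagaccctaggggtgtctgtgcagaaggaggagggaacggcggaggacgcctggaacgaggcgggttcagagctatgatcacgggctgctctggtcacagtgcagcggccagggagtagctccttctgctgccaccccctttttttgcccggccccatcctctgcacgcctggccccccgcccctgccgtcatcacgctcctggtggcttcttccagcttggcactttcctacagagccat
Kcnj15 promoter window, chr16:95257308-95257607, plus strand: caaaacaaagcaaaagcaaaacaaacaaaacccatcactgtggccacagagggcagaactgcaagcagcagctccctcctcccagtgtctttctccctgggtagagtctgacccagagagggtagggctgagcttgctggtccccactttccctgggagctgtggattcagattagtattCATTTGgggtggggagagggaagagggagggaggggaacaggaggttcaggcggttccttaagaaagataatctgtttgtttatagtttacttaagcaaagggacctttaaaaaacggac
The letters read the same on either strand, so a search of both strands gives the same positions. The Kcna4 window held 3 matches, the Kcnj15 window 1 and the Kcnh8 window 0. A window was given for 57 of the 76 members. Of all 32851 windows, 72.3% held CANNTG, against 69.7% of the 76 windows of members, since some members have more than 1 window. The more specific E-box CAGATG, a form of CANNTG, was in 18.4% of member windows and 17.2% of all windows. The letters CATTGT were in 7.89% of member windows and 12.6% of all windows, and TATAAA in 6.58% of member windows and 13.6% of all windows. The base content differed more: the Kcna4 and Kcnh8 windows were 67.7% and 66% G and C, the Kcnj15 window 49.7%, and the medians were 60% over member windows and 52.7% over all windows. These are descriptions of letters and say nothing of binding.

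The libraries held 11139306 to 26195076 counts. Levels are given as CPM, the counts of a gene relative to the library size after scaling by the trimmed mean of M values (TMM), and levels of different genes are compared only as FPKM, the authors' fragment counts scaled to transcript length and library depth. Paw Merkel libraries 1 and 2 were the least alike of any group (median absolute log2 difference 1.00 over genes). Across genes, back IFE library 2 had r = 0.931 and 0.918 with the paw IFE libraries and r = 0.897 with its own partner, and over 28 Hox genes, which record position along the body, these values were 0.753 and 0.883 with the paw IFE libraries and -0.0752 with back IFE library 1. Results that turn on that library are given with and without it. Summed markers followed the labelled cell types. The summed CPM of 8 Merkel markers, Atoh1 of the sort among them, was 2880 and 3090 in paw Merkel libraries, against 14.3 and 18.2 in paw IFE libraries. In back skin it was 4040 and 3940 in Merkel libraries, against 8.96 and 9.27 in IFE libraries. The summed CPM of 9 keratinocyte markers was 8570 and 2250 in paw Merkel libraries, 33600 and 34600 in paw IFE libraries, 2930 and 2530 in back Merkel libraries and 48400 and 34200 in back IFE libraries. In the tests below, 7 of these 9 were lower in Merkel cells at both sites, and Krt1 and Krt10 were called at neither. Krt1 measured 2575 and 243.5 CPM in paw Merkel libraries, against 3307 and 4929 CPM in paw IFE libraries. Krt10 measured 2544 and 142 CPM in paw Merkel libraries, against 2646 and 5565 CPM in paw IFE libraries. In bulk libraries fewer cells of a type and less RNA per cell cannot be told apart.

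Merkel cells held more potassium channel RNA than IFE cells by FPKM, and more members passed 1 FPKM in them. Summed FPKM over the 76 members was 238.5 and 601.8 in paw Merkel libraries 1 and 2, against 90.5 and 91.8 in paw IFE libraries. In back skin the sums were 645.5 and 841.2 in Merkel libraries, against 91.3 and 90.1 in IFE libraries. These FPKM sums did not overlap between the groups at either site, and the paw Merkel pair was the widest. Summed CPM did overlap in the paw, at 1220 and 4128 in Merkel libraries, against 893.4 and 1312 in IFE libraries. Kcnq1ot1, not a channel subunit, took 29.6% to 78.8% of the members' counts in these paw libraries. Over the 73 channel subunits alone, summed CPM was 842.3 and 2038 in paw Merkel libraries, against 284.6 and 267.1 in paw IFE libraries. As a share of all FPKM the members made up 0.14% ± 0.0786 in paw Merkel cells, 0.0304% ± 0.00138 in paw IFE cells, 0.226% ± 0.0397 in back Merkel cells and 0.0274% ± 0.00125 in back IFE cells (mean ± SD, n = 2 libraries each, as for every ± given here). Members above 1 FPKM numbered 36 and 37 in paw Merkel libraries, 15 and 16 in paw IFE libraries, 40 and 38 in back Merkel libraries and 16 and 15 in back IFE libraries. Members with any count overlapped between the cell types. They numbered 60 and 55 in paw Merkel libraries and 51 and 59 in paw IFE libraries. In back skin they numbered 59 and 57 in Merkel libraries and 48 and 61 in IFE libraries.

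The makeup differed between the cell types as well. Pore-forming voltage-gated subunits summed to 143 ± 76.2 FPKM in paw Merkel cells and 3.58 ± 1.63 in paw IFE cells, and to 273 ± 61.4 FPKM in back Merkel cells and 3.70 ± 1.08 in back IFE cells. They held 34.9% ± 3.21 of the members' FPKM in paw Merkel cells and 3.94% ± 1.83 in paw IFE cells. Tandem-pore leak channels took the opposite part: 6.63% ± 3.23 of the members' FPKM in paw Merkel cells and 35.4% ± 0.141 in paw IFE cells, and 6.08% ± 0.121 in back Merkel cells and 40.8% ± 1.29 in back IFE cells. Their summed level differed less between the cell types, at 23.7 ± 3.47 FPKM in paw Merkel cells and 32.2 ± 0.205 in paw IFE cells, and 45.3 ± 9.31 FPKM in back Merkel cells and 37.0 ± 1.51 in back IFE cells. Inward rectifiers summed to 59.4 ± 50.8 FPKM in paw Merkel cells and 21.0 ± 0.601 in paw IFE cells, and to 105 ± 41.4 FPKM in back Merkel cells and 24.5 ± 8.05 in back IFE cells.

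**Figure D1:**
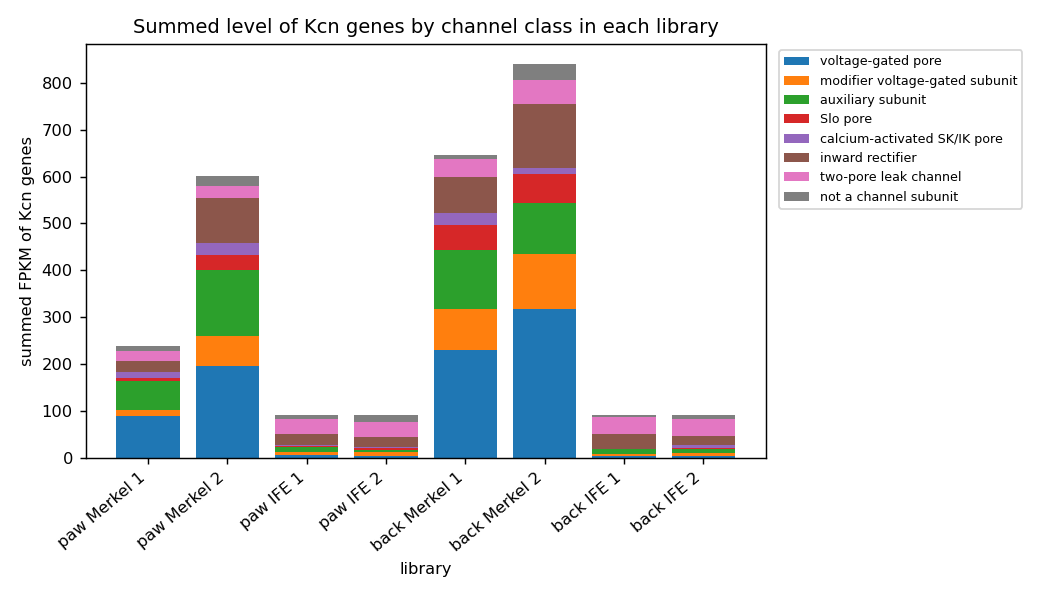
Summed FPKM of the 76 Kcn genes in each of the 8 libraries (vertical axis), stacked by role, with 1 bar per library. The 4 Merkel bars lie between 238.5 and 841.2 FPKM and the 4 IFE bars between 90.1 and 91.8 FPKM, and voltage-gated pores, nearly invisible in IFE bars, are a large block in each Merkel bar.

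By mean FPKM the leading members were different genes in the 2 cell types. In paw Merkel cells they were Kcnip3 (71.3 FPKM), Kcna4 (42.9), Kcnj6 (32.7), Kcnh1 (21.5) and Kcnv1 (20.3). In back Merkel cells they were Kcna4 (104.4 FPKM), Kcnv1 (95.9), Kcnip3 (83.9), Kcnma1 (57.6) and Kcnj6 (53.6). Neighbours in these orders overlapped between libraries: Kcna4 measured 73.8 and 135 FPKM in back Merkel libraries and Kcnv1 79.9 and 112 FPKM. In paw IFE cells the leaders were Kcnk1 (15.2 FPKM), Kcnj15 (14.2), Kcnk2 (10.0), Kcnq1ot1 (7.61) and Kcns3 (6.40), and in back IFE cells Kcnk2 (16.9 FPKM), Kcnj15 (13.8), Kcnk1 (12.4), Kcnk6 (5.15) and Kcnq1ot1 (4.95). Kcnk1, which encodes a leak channel, was the only member among the 10 highest in all 4 groups, with rank 6 in paw Merkel cells, rank 1 in paw IFE cells, rank 6 in back Merkel cells and rank 3 in back IFE cells.

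**Figure D2:**
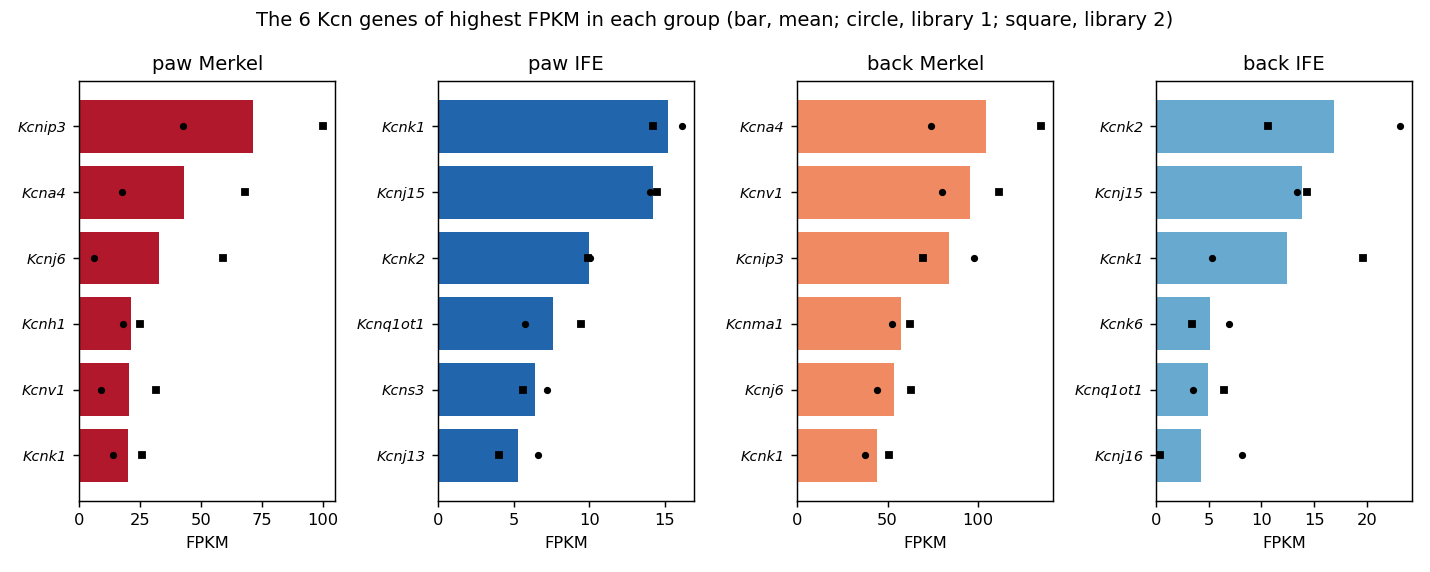
The 6 Kcn genes of highest mean FPKM in Merkel and IFE cells of the paw and of back skin, with FPKM on each horizontal axis (scales differ between panels), bars for the mean and marks for the 2 libraries. Kcnip3, Kcna4, Kcnj6 and Kcnv1 lead the Merkel panels, and Kcnk1, Kcnk2 and Kcnj15 the IFE panels.

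The comparison of Merkel with IFE cells asks how the channel genes of the touch receptor differ from those of the epidermal cells sorted beside it. It was tested with the edgeR quasi-likelihood test on counts over 15151 genes, and adjusted p-values are Benjamini-Hochberg values over all of these, with a call at or under 0.05. Of the 76 members 64 had enough counts to be tested. In the paw 17 of the 64 were higher in Merkel cells and 0 lower, where 6.21% of all genes tested were called in either direction, 4.28% higher and 1.93% lower. Members with an unadjusted p under 0.05 numbered 33 in the paw, against 3201 of all 15151 genes, and DESeq2 called 26 members higher and 4 lower there, with Kcnj15, Kcnj5, Kcnk5 and Kcns3 lower. In back skin 21 of the 64 were higher in Merkel cells and 5 lower, where 7.99% of all genes were called higher and 7.45% lower. The share of members called lower, 7.81%, was near that background. The median log2 fold change of the members tested was 3.14 in the paw and 3.06 in back skin, against -0.04 and -0.06 over all genes tested. Both Merkel libraries lay above both IFE libraries for 33 members tested in the paw, where 24.8% of all genes did so, and for 43 in back skin, where 29.1% did. Both lay below both for 9 members tested at each site, where 28.7% of all genes did so in the paw and 32.8% in back skin.

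Most of the higher calls were shared by the skin sites. In Merkel cells 16 members were higher at both, 1 (Kcnd1) in the paw only and 5 in back skin only. By edgeR after the filter on low counts the lower calls were not shared: 0 members were lower at both sites, 0 in the paw only and 5 in back skin only. In opposite directions it called 0. DESeq2, however, called Kcnj15 and Kcnk5 lower at both sites, and edgeR with no filter called Kcnj15 and Kcnk2 lower at both. The lack of paw calls thus depends on the test and does not show that the falls belong to back skin. Kcna4, Kcnv1, Kcnh8, Kcnd2, Kcnh2, Kcnip3, Kcnh1 and Kcnmb1 were among the members that kept their calls at both sites when any 1 of the 8 libraries was left out. In the paw 9 of the 17 calls were kept in this way and in back skin 12 of 26, with Kcnj6 and Kcnj15 among those of back skin. Limma-trend lost the paw calls of Kcnd1, Kcnip2, Kcnj3 and Kcnq3 (adjusted p = 0.0733, 0.0704, 0.131 and 0.18) and the back call of Kcnn3 (adjusted p = 0.28), and DESeq2 lost the back call of Kcnj16 (adjusted p = 0.101). Where no tool is named, a call or its lack is that of edgeR after the filter on low counts.

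**Figure D3:**
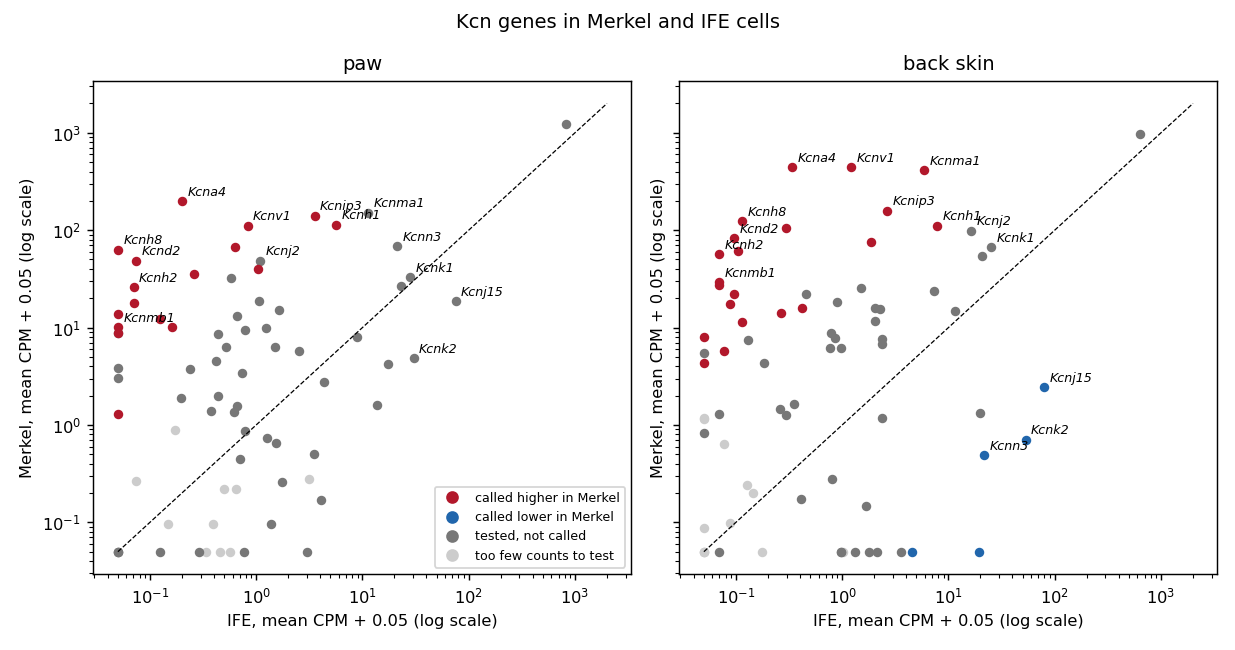
Mean CPM of each Kcn gene in Merkel cells (vertical) against IFE cells (horizontal) in the paw and in back skin, both axes logarithmic after adding 0.05 CPM, with the dashed line at equal levels and colour for the edgeR call. The 17 paw and 21 back genes called higher lie far above the line, the 5 called lower in back skin lie below it, and the unlabelled grey point at the top right is Kcnq1ot1.

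**Figure D4:**
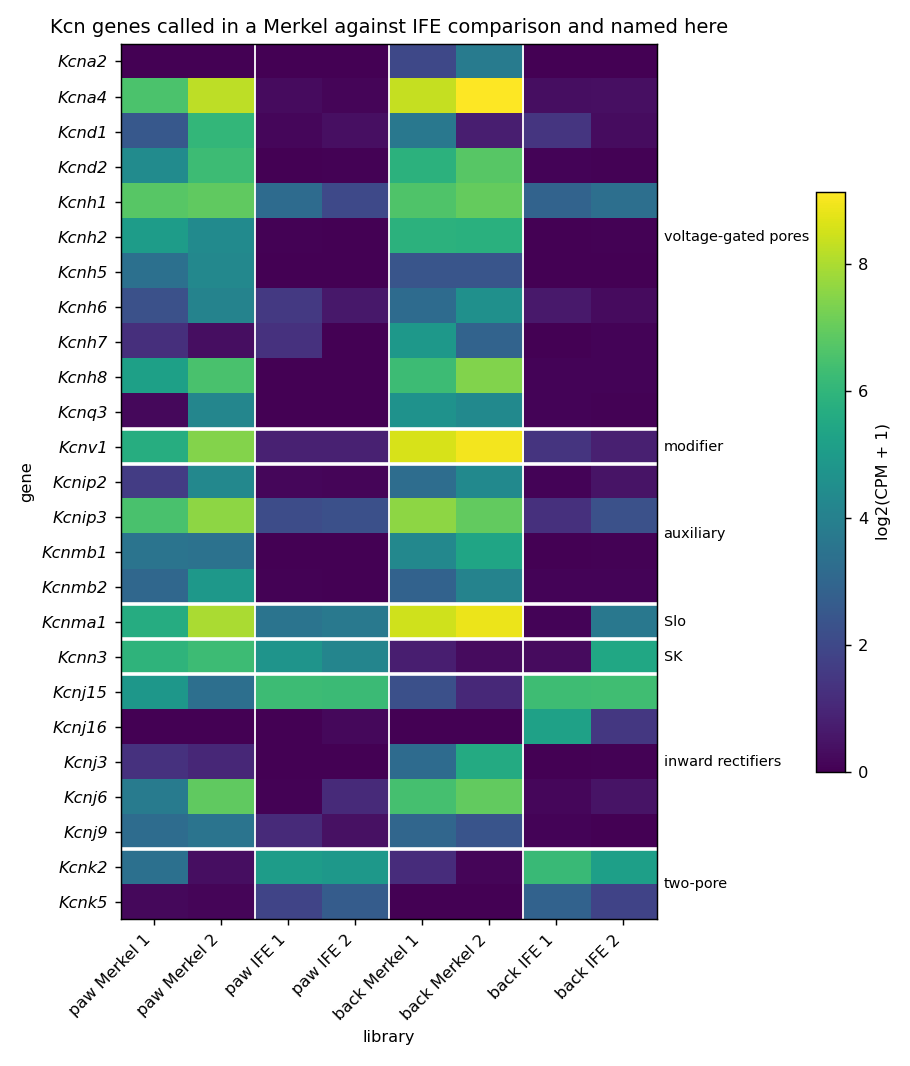
Levels as log2(CPM + 1) in the 8 libraries (columns) of Kcn genes called in either Merkel against IFE comparison and named in the text (rows, grouped by role; two-pore stands for tandem-pore channels). Kcna4, Kcnv1 and Kcnma1 are brightest in back Merkel libraries, and Kcnj15 and Kcnk2 are bright in IFE libraries.

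Among voltage-gated pores 10 of the 22 tested were higher in paw Merkel cells and 12 of 22 in back Merkel cells, with 0 lower at either site. Kcna4 (chromosome 2, 107290639 to 107298502, GENCODE vM21 on GRCm38) encodes a Shaker pore that carries a fast-inactivating A-type current. It measured 93.2 and 303 CPM in paw Merkel libraries, against 0.204 and 0.0987 CPM in paw IFE libraries, and 324 and 564 CPM in back Merkel libraries, against 0.271 and 0.305 CPM in back IFE libraries. Every Merkel library lay far above every IFE library. The log2 fold change was 10.26 in the paw (SE 0.80, adjusted p = 2.45e-05) and 10.55 in back skin (SE 0.79, adjusted p = 1.39e-05).

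The other Shaker genes were low or at 0 counts. Kcna2, a delayed rectifier of axons, was read in back Merkel libraries only, at 2.97 and 13.1 CPM, against 0 counts in back IFE libraries, and was at least 119-fold higher there, taking 3 counts over a group as the floor for a count of 0 (adjusted p = 0.0494). Such floors and all counting intervals given here reflect counting error alone, since reads from amplified RNA are not independent. The Kcna2 call was lost without any 1 back library and without either paw IFE library (adjusted p up to 0.239). Kcna1 reached 7.19 CPM in paw Merkel library 1 and 0.277 CPM in library 2, and Kcna7 stayed at or below 2.00 CPM in every library.

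The Kcnd genes encode Shal pores, which carry the A-type current of dendrites and cell bodies. Kcnd2 (chromosome 6, 21215503 to 21729805) measured 20.5 and 76.2 CPM in paw Merkel libraries, against 0 and 0.0493 CPM in paw IFE libraries, and 57.8 and 108 CPM in back Merkel libraries, against 0.0543 and 0.0382 CPM in back IFE libraries. With 1 count in the paw IFE group and 2 in the back IFE group, the ratio of pooled CPM was 1770 in the paw (95% exact counting interval 317 to 70000, adjusted p = 0.000298) and 1780 in back skin (493 to 14700, adjusted p = 0.000154). Kcnd1 was uneven, with 4.70 and 66.2 CPM in paw Merkel libraries, against 0.122 and 0.296 CPM in paw IFE libraries. Its log2 fold change was 7.37 (SE 1.93, adjusted p = 0.0468), a value of 4.46 without paw Merkel library 2, where the call was lost as it was without either paw IFE library. In back skin Kcnd1 measured 11.5 and 0.684 CPM in Merkel libraries, against 1.63 and 0.229 CPM in IFE libraries, and the groups overlapped. Kcnd3 was read at 22.0 and 22.2 CPM in back Merkel libraries, against 0.0543 and 0.763 CPM in back IFE libraries, without a call by edgeR (adjusted p = 0.133). DESeq2, limma-trend, edgeR with no filter and edgeR with the replicate block called it.

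The Kcnh subfamily, the ether-a-go-go related channels, had the most calls of any subfamily: 4 of its 7 tested members were higher in paw Merkel cells and 6 of 7 in back Merkel cells. Kcnh8, of the Elk branch, measured 35.5 and 90.1 CPM in paw Merkel libraries, against 0 counts in paw IFE libraries, and 76.5 and 170 CPM in back Merkel libraries, against 0.0543 and 0.0763 CPM in back IFE libraries. It was at least 938-fold higher in paw Merkel cells (adjusted p = 0.000109), and in back skin, with 3 counts in the IFE group, the ratio was 1750 (597 to 8470, adjusted p = 7.74e-05). The IFE libraries were at or next to 0 throughout.

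Kcnh2 (chromosome 5, 24319589 to 24351604), the Erg pore known for repolarising heart muscle, measured 32.2 and 19.5 CPM in paw Merkel libraries, against 0.0407 and 0 CPM in paw IFE libraries, and 57.9 and 55.5 CPM in back Merkel libraries, against 0 and 0.0382 CPM in back IFE libraries. With 1 count in each IFE group the ratio was 1250 in the paw (223 to 49300, adjusted p = 0.000467) and 2540 in back skin (454 to 100000, adjusted p = 0.000172). Kcnh1 (chromosome 1, 192190774 to 192510159), the Eag pore, was the member of this subfamily that IFE cells also carried. Its levels were 108 and 120 CPM in paw Merkel libraries, against 8.27 and 3.01 CPM in paw IFE libraries, and 98.8 and 124 CPM in back Merkel libraries, against 6.57 and 9.08 CPM in back IFE libraries. The Merkel libraries were close to each other at both sites, and the log2 fold change was 4.33 in the paw (SE 0.58, adjusted p = 0.00102) and 3.83 in back skin (SE 0.57, adjusted p = 0.00114).

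The remaining Kcnh genes were lower in level. Kcnh5, the other Eag pore, measured 9.35 and 18.2 CPM in paw Merkel libraries and 4.26 and 4.30 CPM in back Merkel libraries, with 0 counts in all 4 IFE libraries. It was at least 205-fold higher in paw Merkel cells (adjusted p = 0.0172) and at least 63.7-fold higher in back Merkel cells (adjusted p = 0.0159), and both calls were lost when either IFE library of the same site was left out, as was the paw call without paw Merkel library 2. The Erg genes Kcnh6 and Kcnh7 were called in back skin only, Kcnh6 with a log2 fold change of 5.41 (SE 1.48, adjusted p = 0.0307) and Kcnh7 with a ratio of 417 over 2 IFE counts (115 to 3450, adjusted p = 0.0399). Both calls were lost when back Merkel library 2 or either back IFE library was removed, and that of Kcnh7 without back Merkel library 1 too. Kcnh3, an Elk pore, measured 7.76 and 9.31 CPM in paw Merkel libraries, against 0.733 and 0.0493 CPM in paw IFE libraries, without a call by edgeR (adjusted p = 0.192), and DESeq2 and edgeR with no filter called it.

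Kcnb2, a Shab pore of the delayed-rectifier kind, measured 23.7 and 27.6 CPM in back Merkel libraries, against 0 and 2.94 CPM in back IFE libraries, and was not called by edgeR (adjusted p = 0.121). DESeq2, limma-trend and edgeR with no filter called it, as did edgeR without back IFE library 2.

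Kcnq genes carry the slow M-type current that limits repetitive firing. Kcnq3 measured 0.144 and 17.5 CPM in paw Merkel libraries, against 0 counts in paw IFE libraries, and 24.5 and 19.2 CPM in back Merkel libraries, against 0.0543 and 0.0382 CPM in back IFE libraries. The paw value rested on paw Merkel library 2, since library 1 held 3 counts; over the group Kcnq3 was at least 132-fold higher (adjusted p = 0.0408), and the call was lost without that library, either paw IFE library or either back Merkel library. In back skin the ratio over 2 IFE counts was 495 (136 to 4100, adjusted p = 0.0248), a call lost without any 1 back library. Kcnq1 had 13 counts over all libraries and was not tested.

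Of the modifier subunits Kcnv1 was called by edgeR and the other 3 tested were not. DESeq2 also called Kcns3 lower in paw Merkel cells and Kcnf1 lower in back Merkel cells. With no filter edgeR called Kcng3 in opposite directions, higher in paw Merkel cells and lower in back Merkel cells. Kcnv1 (chromosome 15, 45106284 to 45114920) encodes a subunit that is silent alone and joins Kcnb pores. It measured 50.8 and 171 CPM in paw Merkel libraries, against 0.774 and 0.790 CPM in paw IFE libraries, and 388 and 500 CPM in back Merkel libraries, against 1.57 and 0.763 CPM in back IFE libraries. The IFE libraries were alike and low, and the log2 fold change was 7.14 in the paw (SE 0.70, adjusted p = 0.000109) and 8.58 in back skin (SE 0.73, adjusted p = 3.13e-05). Kcns3, another silent partner of Kcnb pores, had the contrary pattern in the paw, with 5.51 and 2.77 CPM in Merkel libraries, against 19.5 and 15.0 CPM in IFE libraries, and in back skin 15.0 and 14.4 CPM in Merkel libraries, against 10.6 and 12.6 CPM in IFE libraries. EdgeR called neither difference (adjusted p = 0.192 and 0.821).

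Auxiliary subunits had 4 called members at each site, of 12 tested, and they were the same ones: Kcnip2, Kcnip3, Kcnmb1 and Kcnmb2. Kcnip3 (chromosome 2, 127456498 to 127522094) encodes a calcium-binding partner of Kcnd pores that is also known as a calcium-dependent transcriptional repressor. It measured 91.6 and 191 CPM in paw Merkel libraries, against 3.34 and 3.65 CPM in paw IFE libraries, and 194 and 124 CPM in back Merkel libraries, against 1.41 and 3.78 CPM in back IFE libraries. The groups were far apart at both sites, with a log2 fold change of 5.33 in the paw (SE 0.64, adjusted p = 0.000467) and 5.92 in back skin (SE 0.65, adjusted p = 0.000173). Kcnip3 made up 70.1% of the auxiliary subunits' summed FPKM in paw Merkel cells and 71.2% in back Merkel cells. Kcnip2 followed with log2 fold changes of 6.43 in the paw (SE 1.69, adjusted p = 0.0479) and 5.92 in back skin (SE 1.63, adjusted p = 0.0317), calls lost without any 1 library of the same site except paw Merkel library 1, and for the paw also without either back Merkel library. Kcnip1 and Kcnip4 were not called by edgeR, and DESeq2 called Kcnip1 higher in paw Merkel cells. The Kcnab genes, cytoplasmic partners of Shaker pores, were not called by edgeR either; Kcnab2 measured 18.9 and 18.2 CPM in paw Merkel libraries, against 2.00 and 0.0493 CPM in paw IFE libraries (adjusted p = 0.143), a difference that DESeq2 and edgeR with no filter called.

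Large-conductance calcium-activated (BK) channels consist of the Slo pore Kcnma1 and its beta subunits. Kcnma1 (chromosome 14, 23289431 to 24014491) measured 49.3 and 252 CPM in paw Merkel libraries, against 10.5 and 11.9 CPM in paw IFE libraries, and 354.5 and 471 CPM in back Merkel libraries, against 0.0543 and 11.6 CPM in back IFE libraries. All Merkel libraries lay above all IFE libraries, but the paw difference was not called after the filter on low counts, with a log2 fold change of 3.74 (SE 1.27, adjusted p = 0.114), and was called with no filter. In back skin it was called, with a log2 fold change of 6.13 (SE 1.42, adjusted p = 0.0139). Back IFE library 1, with 1 count, and library 2, with 304, differed so much that, library 2 removed, the log2 fold change was 12.71, and the call was lost without back Merkel library 2 (adjusted p = 0.0655). Leaving out a back IFE library also moved the paw value past the threshold (adjusted p = 0.00481 without library 1 and 0.00583 without library 2).

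Of the beta subunit genes Kcnmb1 and Kcnmb2 were called at both sites. Kcnmb1 (chromosome 11, 33963013 to 33973641) measured 10.4 and 9.77 CPM in paw Merkel libraries, against 0 counts in paw IFE libraries, and 18.3 and 40.1 CPM in back Merkel libraries, against 0 and 0.0382 CPM in back IFE libraries. It was at least 151-fold higher in paw Merkel cells (adjusted p = 0.00459), and the ratio over 1 IFE count was 1240 in back skin (222 to 49200, adjusted p = 0.00189). Kcnmb2, whose product can inactivate the channel, measured 7.24 and 28.2 CPM in paw Merkel libraries, against 0.0407 and 0 CPM in paw IFE libraries, and 6.39 and 16.2 CPM in back Merkel libraries, against 0.0543 and 0.0763 CPM in back IFE libraries. Its ratio was 646 in the paw (115 to 25600, adjusted p = 0.00858) and 159 in back skin (53.8 to 776, adjusted p = 0.00912), and the call was lost at each site when either IFE library of that site was left out. Kcnmb4, the beta subunit of neurons, stayed at or below 3.19 CPM, and it shares 31.5% of its exonic bases with the overlapping Kcnmb4os1 and Kcnmb4os2, from which reads cannot be told apart since the strand setting is not given in the sources used here. The sodium-activated Slo pores Kcnt1 and Kcnt2 reached at most 7.38 and 5.87 CPM and were not called.

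The small-conductance (SK) pores Kcnn1 and Kcnn2, which respond to calcium alone, were not called by edgeR at either site. DESeq2 called Kcnn1 at both sites and Kcnn2 in back skin, where edgeR with no filter called Kcnn2 too. Kcnn1 measured 5.75 and 20.2 CPM in paw Merkel libraries, against 0.0815 and 1.14 CPM in paw IFE libraries (adjusted p = 0.131). Kcnn2 measured 23.4 and 12.9 CPM in back Merkel libraries, against 0.0543 and 1.64 CPM in back IFE libraries (adjusted p = 0.143). Kcnn4, the intermediate-conductance pore, had 0 counts in all 4 Merkel libraries and at most 1.14 CPM in an IFE library. Kcnn3 varied by site and is described there.

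Inward rectifiers were divided. Of the 4 G protein-gated members, which open when G protein beta and gamma subunits are released, Kcnj3 and Kcnj6 were called higher in Merkel cells at both sites and Kcnj9 in back skin, and Kcnj5 was called at neither. Kcnj6 (chromosome 16, 94748636 to 94997701) measured 13.04 and 120.5 CPM in paw Merkel libraries, against 0.0407 and 1.14 CPM in paw IFE libraries, and 86.6 and 123 CPM in back Merkel libraries, against 0.109 and 0.382 CPM in back IFE libraries. The log2 fold change was 6.84 in the paw (SE 1.37, adjusted p = 0.0128), 4.49 without paw Merkel library 2, where the call was lost as it was without paw IFE library 1, and 8.64 in back skin (SE 1.49, adjusted p = 0.00294). Kcnj3, its usual partner, measured 1.49 and 1.014 CPM in paw Merkel libraries, against 0 counts in paw IFE libraries, and 8.21 and 46.7 CPM in back Merkel libraries, against 0 and 0.0382 CPM in back IFE libraries. It was at least 18.7-fold higher in paw Merkel cells (adjusted p = 0.0466) and, over 1 IFE count, 1120 times higher in back Merkel cells (200.0 to 44300, adjusted p = 0.00554). The paw call was lost without paw Merkel library 2, either paw IFE library or back Merkel library 2, and the back call without back Merkel library 2, and Kcnj3 shares 31.1% of its exonic bases with another gene, Gm26794. Kcnj9 was called in back skin, at 7.15 and 4.20 CPM in Merkel libraries, against 0.0543 and 0 CPM in IFE libraries (ratio 261 over 1 count, 46.2 to 10400, adjusted p = 0.0222), and that call was lost without back Merkel library 1 or either back IFE library. In the paw it was called by DESeq2 but not by edgeR (adjusted p = 0.195). Kcnj5 had 0 counts in paw Merkel libraries, against 0 and 5.87 CPM in paw IFE libraries, and 13.4 and 1.56 CPM in back Merkel libraries, against 0.163 and 0 CPM in back IFE libraries. DESeq2 and edgeR with no filter called it lower in paw Merkel cells and higher in back Merkel cells, and edgeR after the filter did neither (adjusted p = 0.195 and 0.168).

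Classical strong rectifiers and the ATP-sensitive pore were not called by edgeR, while DESeq2 called Kcnj4, a strong rectifier, higher in paw Merkel cells. Kcnj2, the main pore of the resting potential in muscle, measured 23.6 and 73.9 CPM in paw Merkel libraries, against 0.163 and 1.93 CPM in paw IFE libraries, with a log2 fold change of 5.55 (SE 1.52, adjusted p = 0.055); DESeq2, limma-trend and edgeR with no filter called it. In back skin it measured 69.2 and 128 CPM in Merkel libraries, against 32.0 and 0.878 CPM in IFE libraries (adjusted p = 0.208), and edgeR with no filter called it. Kcnj11, the ATP-sensitive pore, was read at 0.837 and 10.1 CPM in back Merkel libraries and at 0 counts in the 6 others (adjusted p = 0.0818 against back IFE cells). DESeq2, limma-trend and edgeR with no filter called it.

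The epithelial rectifier Kcnj15 (chromosome 16, 95257558 to 95300260) was the IFE gene of this class. It measured 27.9 and 9.22 CPM in paw Merkel libraries, against 75.7 and 75.1 CPM in paw IFE libraries, and 3.73 and 1.08 CPM in back Merkel libraries, against 77.0 and 80.8 CPM in back IFE libraries. The 4 IFE libraries lay within 75.1 to 80.8 CPM, and every Merkel library lay below them. In back skin it fell by 5.02 on the log2 scale in Merkel cells (SE 0.77, adjusted p = 0.00139), a call kept without any 1 library, and in the paw the log2 fold change was -2.02 (SE 0.67, adjusted p = 0.106), called by DESeq2 (adjusted p = 0.0201) and by edgeR with no filter. Paw Merkel library 1, with the highest Kcnj15 of the Merkel libraries, also had the highest summed keratinocyte markers of them, 8570 CPM against 2250 to 2930 CPM; the part of this in the value was not tested. Kcnj16, which can join Kcnj15 and Kcnj10, had 0 counts in back Merkel libraries, against 36.5 and 1.79 CPM in back IFE libraries, and was at least 149-fold lower in back Merkel cells (adjusted p = 0.0328). That call was lost when back IFE library 1 or either back Merkel library was removed (adjusted p up to 0.318 over the libraries left out), and by DESeq2 (adjusted p = 0.101). In back IFE library 1, 8 immune and Langerhans cell markers summed to 567 CPM, against 88.7 CPM in library 2; the part of these cells in the value was not tested. Kcnj13, another epithelial rectifier, was not called at either site (adjusted p = 0.918 in the paw and 0.241 in back skin), with 10.2 and 43.1 CPM in paw Merkel libraries, against 25.99 and 20.2 CPM in paw IFE libraries, and 26.7 and 80.9 CPM in back Merkel libraries, against 21.5 and 19.6 CPM in back IFE libraries. It shares 49.1% of its exonic bases with Gigyf2, so its reads cannot be assigned surely.

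Of the tandem-pore leak channels 0 of the 6 tested were higher in Merkel cells at either site, and 2 were lower in back Merkel cells. Kcnk2 (chromosome 1, 189207930 to 189402273) encodes a leak channel opened by stretch, lipids and heat. It measured 9.30 and 0.277 CPM in paw Merkel libraries, against 32.3 and 28.3 CPM in paw IFE libraries, and 1.22 and 0.0977 CPM in back Merkel libraries, against 71.6 and 34.7 CPM in back IFE libraries. All Merkel libraries lay below all IFE libraries, and in back skin the level fell by 6.28 on the log2 scale in Merkel cells (SE 1.5, adjusted p = 0.0163), and the threshold was missed once back Merkel library 2 or back IFE library 1 was left out. In the paw Kcnk2 was called by edgeR with no filter and not after it (adjusted p = 0.252), and its higher Merkel value was again in paw Merkel library 1. Kcnk5, an acid-sensitive leak channel, had 0 counts in back Merkel libraries, against 6.40 and 2.60 CPM in back IFE libraries, and was at least 35.1-fold lower in back Merkel cells (adjusted p = 0.038). That call was lost without any 1 back library and without either paw IFE library (adjusted p up to 0.134). Kcnk6 measured 0.228 and 2.35 CPM in back Merkel libraries, against 26.8 and 12.9 CPM in back IFE libraries, without a call by edgeR (adjusted p = 0.139), and DESeq2 and edgeR with no filter called it.

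Kcnk1 (chromosome 8, 125995170 to 126030685), a leak channel of epithelia and brain, was the highest member of this class in Merkel cells and did not follow the others. It measured 25.9 and 39.4 CPM in paw Merkel libraries, against 30.1 and 25.96 CPM in paw IFE libraries, where the groups overlapped. In back skin it measured 58.4 and 75.9 CPM in Merkel libraries, against 11.02 and 38.9 CPM in IFE libraries, with a log2 fold change of 1.43 (SE 0.63, adjusted p = 0.15). Kcnk1 made up 84.1% of the class's summed FPKM in paw Merkel cells and 47.2% in paw IFE cells, and 97.3% in back Merkel cells and 33.6% in back IFE cells.

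The title of the series concerns hairy and glabrous skin, and the comparison of Merkel cells between paw and back skin asks whether their channel genes differ. By edgeR 0 of the 64 members tested were called between paw and back Merkel cells, where 0.185% of all genes were (0.178% higher and 0.0066% lower in the paw), and unadjusted p-values under 0.05 numbered 10, against 1550 of all 15151 genes. DESeq2 called 6 (Kcna2, Kcnj15, Kcnj3, Kcnj5, Kcnn3 and Kcnv1), limma-trend 0, and edgeR with no filter on low counts 6 (Kcng3, Kcnj15, Kcnj5, Kcnma1, Kcnn3 and Kcnv1). Paw Merkel libraries lay above both back Merkel libraries for 10 members, where 18.2% of all genes did so, and below both for 23, where 17.2% did. The members' median log2 fold change was -0.56, against 0.03 over all genes. The genes given for this comparison were chosen after their values were seen.

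Kcnn3 (chromosome 3, 89520164 to 89675132), an SK pore, measured 60.9 and 75.5 CPM in paw Merkel libraries and 25.7 and 16.9 CPM in paw IFE libraries, against 0.685 and 0.195 CPM in back Merkel libraries and 0.217 and 42.7 CPM in back IFE libraries. Both paw groups lay at 16.9 to 75.5 CPM, 3 of the back libraries were under 1 CPM, and the exception was back IFE library 2, the library whose Hox genes resembled those of the paw. For paw against back Merkel cells the log2 fold change was 7.22 (unadjusted p = 0.00181, adjusted p = 0.172); the adjusted p was 7.96e-06 by DESeq2, and by edgeR 0.00665 without back IFE library 1 and 0.0151 without back IFE library 2. Kcnn3 was called lower in back Merkel cells, with back IFE cells as comparison, at -5.55 on the log2 scale (SE 1.67, adjusted p = 0.0448), which rested on back IFE library 2: without it the log2 fold change was 1.03 (adjusted p = 0.598), and the call was also lost without either Merkel library of either site. The difference between the 2 Merkel against IFE contrasts, 7.23 on the log2 scale (adjusted p = 0.382), was likewise 0.65 without that library.

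Other members differed between Merkel libraries of the sites in less regular ways. Kcnj15 had a log2 fold change of 2.94 for paw over back Merkel cells (unadjusted p = 0.00157, adjusted p = 0.16), with the keratinocyte marker values given above beside it. Kcnv1 had a log2 fold change of -2.00 (unadjusted p = 0.00332, adjusted p = 0.213) and Kcna4 one of -1.16 (adjusted p = 0.473). Kcna2 was read in back Merkel libraries only, and Kcnj5, a G protein-gated rectifier, had 0 counts in paw Merkel libraries, against 13.4 and 1.56 CPM in back Merkel libraries. Kcng3, a modifier subunit, was at 0.0479 and 64.1 CPM in paw Merkel libraries, against 0 counts in back Merkel libraries, so its level came from paw Merkel library 2 alone.

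**Figure D5:**
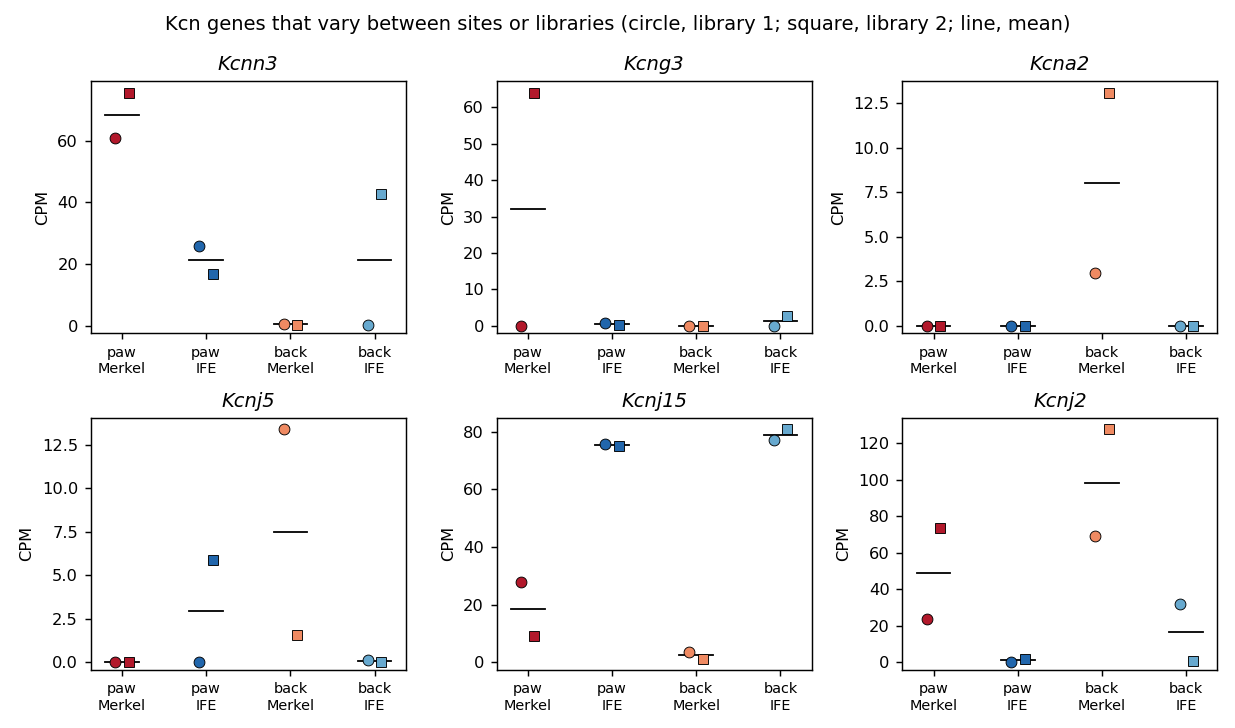
CPM in every library of 6 Kcn genes that vary between skin sites or between libraries of a group (circle, library 1; square, library 2; line, mean; scales differ between panels). Kcnn3 is high in paw Merkel libraries and in back IFE library 2 and near 0 in both back Merkel libraries, and the Kcng3 mean of paw Merkel cells comes from 1 library of 64.1 CPM.

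Between paw and back IFE cells 0 of 64 members were called by edgeR, by DESeq2 and by limma-trend, where 0% of all genes were called by edgeR. Members with an unadjusted p under 0.05 numbered 3, against 643 of all 15151 genes, and edgeR with no filter called Kcnj16 and Kcnj2. The interaction, which asks whether the Merkel against IFE difference of the paw differs from that of back skin, also gave 0 members by edgeR and limma-trend, 6 with an unadjusted p under 0.05 (1365 of all genes), 2 by DESeq2 (Kcnj5 and Kcnn3) and 5 by edgeR with no filter (Kcng3, Kcnj15, Kcnj5, Kcnma1 and Kcnn3). For Kcnj15 and Kcnma1, called in back skin and not in the paw, the difference between the sites was thus called only with no filter, and for Kcnk2 by none of these tests.

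Genes that work with potassium channels were read from a list of 53, of which 41 were tested. In the paw 8 were higher and 1 lower in Merkel cells, and in back skin 13 were higher and 4 lower, with a median log2 fold change of 1.48 and 1.47, and 0 were called between sites. Of all genes tested 4.28% were called higher and 1.93% lower in the paw, and 7.99% higher and 7.45% lower in back skin. The lower calls, 1 and 4 of the 41 tested, were near those shares. Dpp10, a transmembrane partner of Kcnd pores, measured 29.4 and 91.1 CPM in paw Merkel libraries, against 0.0815 and 0 CPM in paw IFE libraries, and 135.6 and 136 CPM in back Merkel libraries, against 0.0543 and 0.0763 CPM in back IFE libraries. The ratio over 2 IFE counts was 1130 in the paw (313 to 9350, adjusted p = 0.000109), and over 3 IFE counts 2020 in back skin (691 to 9800, adjusted p = 5.24e-05). Cntn2, an adhesion molecule that gathers Kcna pores along axons, had log2 fold changes of 6.44 in the paw (adjusted p = 0.00578) and 8.07 in back skin (adjusted p = 0.00121). Gng2 and Gng4, gamma subunits of the G proteins that open Kcnj3, Kcnj6 and Kcnj9, had log2 fold changes of 8.34 and 7.16 in the paw and 5.10 and 10.19 in back skin. Abcc8, the sulfonylurea receptor that joins Kcnj11, was at least 52.2-fold higher in paw Merkel cells (adjusted p = 0.0302) and had a log2 fold change of 7.50 in back skin (adjusted p = 0.0144).

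Pump and cotransporter genes were called in both directions. The sodium-potassium pump subunit Atp1b1 measured 389 and 342.5 CPM in paw Merkel libraries, against 5.38 and 16.5 CPM in paw IFE libraries, and 879 and 589 CPM in back Merkel libraries, against 13.2 and 5.04 CPM in back IFE libraries (adjusted p = 0.000655 and 0.00013). Atp1b3, another beta subunit of the pump, fell by 2.49 on the log2 scale in back Merkel cells (adjusted p = 0.00397). The potassium-chloride cotransporter gene Slc12a4 was called lower in Merkel cells at both sites, with log2 fold changes of -2.79 in the paw and -3.14 in back skin. Rest, a repressor of neuronal genes in other tissues, measured 31.5 and 30.2 CPM in paw Merkel libraries, against 90.9 and 90.7 CPM in paw IFE libraries, and 18.9 and 11.2 CPM in back Merkel libraries, against 101 and 86.6 CPM in back IFE libraries. It fell by 2.64 on the log2 scale in back Merkel cells (SE 0.46, adjusted p = 0.00294) and was not called in the paw (adjusted p = 0.0607).

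Many of the called channels are known from neurons, so sensory neuron markers were read beside them. Of 7 markers 6 were tested and 2 were higher in Merkel cells at both sites, Avil and Pou4f1. The list summed to 192 and 291 CPM in paw Merkel libraries, 3.54 and 10.0 in paw IFE libraries, 728 and 651 in back Merkel libraries and 2.88 and 4.01 in back IFE libraries. Avil and Pou4f1 held most of these sums, while Prph, a filament of peripheral neurons, had 0 counts in all Merkel libraries and Scn10a, a sodium channel of nociceptors, had 0 to 3 counts in any library. The part of neuronal RNA in the channel values was not tested. Among other lists, 8 melanocyte markers summed to 18.5 to 26.7 CPM in Merkel libraries and 7.95 to 16.4 CPM in IFE libraries and 0 were called, with Tyrp1 at 0 in Merkel libraries, Mitf at 11.3 to 21.2 CPM in Merkel libraries and 2.89 to 11.2 CPM in IFE libraries, and Sox10 at 0 to 2.35 CPM in Merkel libraries and 0 in IFE libraries. Ednrb reached 6.09 CPM in paw Merkel library 1. Immune markers summed to 0.293 to 7.05 CPM in Merkel libraries, with Cd207 and Tyrobp at 0, and 7 markers of Schwann cells and glia to 38.9 to 122 CPM in Merkel libraries and 66.1 to 146 CPM in IFE libraries. The 7 fibroblast markers summed to 133 and 85.7 CPM in paw Merkel libraries, 435 and 390 in paw IFE libraries, 170 and 77.9 in back Merkel libraries and 92.6 and 411 in back IFE libraries, with Lum and Twist2 at 0 in Merkel libraries. Of these, Dcn was higher in paw than in back Merkel cells (70.8 against 4.36 CPM, adjusted p = 0.0336), and Col1a2 was higher in back Merkel than in back IFE cells (119 against 25.3 CPM, adjusted p = 0.0155), whereas Col3a1 was lower in Merkel cells at both sites (adjusted p = 0.0466 and 0.00194). The 7 endothelial and mural markers summed to 6.82 to 21.6 CPM in Merkel libraries and 46.6 to 181 CPM in IFE libraries. Most of each IFE sum was Cspg4, at 179 and 99.4 CPM in paw IFE libraries and 41.6 and 113 CPM in back IFE libraries. Cdh5 had 0 counts in every IFE library, so these sums do not measure endothelial cells. Pecam1 was at 0 in paw Merkel libraries and at 8.75 and 9.97 CPM in back Merkel libraries, against 2.17 and 0.420 CPM in back IFE libraries. The part of any of these cell types in the channel values was not tested.

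Kcnq1ot1, the long antisense transcript of the imprinted Kcnq1 locus, took 21.5% to 78.8% of all Kcn counts in a library although Kcnq1 itself was near 0. It measured 361.8 and 2090 CPM in paw Merkel libraries, against 602.6 and 1033 CPM in paw IFE libraries, and 629.4 and 1297 CPM in back Merkel libraries, against 445.3 and 821.8 CPM in back IFE libraries. The groups overlapped at both sites (adjusted p = 0.678 and 0.581). Kcnrg measured 15.6 and 0.0922 CPM in paw Merkel libraries, against 6.23 and 11.3 CPM in paw IFE libraries, and was not called.

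The 12 members with too few counts to test were Kcnc4, Kcng2, Kcnh4, Kcnj10, Kcnj14, Kcnk12, Kcnk13, Kcnk18, Kcnmb3, Kcnmb4os2, Kcnq1 and Kcnu1, with 10 to 131 counts over the 8 libraries. Some of these counts lay in a single library: Kcng2 reached 6.17 CPM in paw IFE library 2 and at most 0.461 CPM elsewhere, and Kcnj10 was read in paw IFE library 2 alone, at 1.04 CPM. The 22 Kcn symbols under the count rule held 0 to 9 counts. They include Kcna3, Kcna5 and Kcna6 of the Shaker pores, Kcnc2 of the Shaw pores, Kcne1, Kcne2 and Kcne3 of the auxiliary subunits, Kcnj8 of the ATP-sensitive rectifiers and the leak channels Kcnk3, Kcnk9 and Kcnk10. At these depths such genes were not detectable above a few counts, which does not show that they are absent.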

How the data were processed

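RNA of 8 libraries was sequenced, 2 in each of 4 groups given by the labels. Per the submitters' processing notes, reads were placed on mm10 with tools that include TopHat2 2.0.13, Cufflinks 2.2.1, featureCounts of Subread 1.4.6 and DESeq2 1.6.3; the gene annotation and strand setting are not given in the sources used here. The authors deposited gene counts as whole numbers over 24538 genes. They also deposited FPKM values, already scaled to length and depth. Per the labels' protocols RNA was amplified before library construction.

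The counts were tested with edgeR 4.0.16 in R 4.3.3, on the 15151 genes kept by filterByExpr, with TMM scaling, 1 mean per group over 8 libraries (4 residual degrees of freedom), the quasi-likelihood F test and Benjamini-Hochberg adjustment over all genes tested (threshold 0.05). Total counts of 11139306 to 26195076 limit the precision of low genes. SE is the log2 fold change over the square root of F. Where a group had 0 counts, the fold is a bound at a floor of 3 counts over the group; with 1 to 3 counts it is a ratio of pooled CPM with an exact 95% interval. FPKM values were summed and ranked without a test. Alternatives were median-ratio scaling, no filter, DESeq2 1.42.0, limma-trend (limma 3.58.1, log2 CPM with a prior count of 2), a replicate block, leaving out each library, CPM in place of FPKM, and channel subunits only, the last chosen after seeing the data. The test was run on simulated data first.

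Members, partner genes and marker lists were chosen with earlier results of these data known. Genes with values in every library follow a rule: the 8 called members of each direction with the smallest adjusted p in each Merkel against IFE comparison, and the 5 of highest FPKM in each group; other called members are given with their fold change, and uncalled ones were chosen after their values were seen. A few genes that the rule or the lists would name are not reported here, though counts and sums over members include them. All 76 members were found in GENCODE vM21.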

Additional observations from a re-analysis of the deposited data

How the results depend on the processing

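With 2 libraries a group and 4 residual degrees of freedom the counts of calls moved with the test and with single libraries. In back skin the 26 members called became 34 with no filter on low counts, 35 by DESeq2 and 28 by limma-trend. In the paw the 17 members called became 26 with no filter on low counts, 30 by DESeq2 and 15 by limma-trend, and ranged from 9 to 22 when 1 library was left out, while all genes called, 941, became 1920, 2227 and 392 to 2167. In back skin the 26 members ranged from 15 to 26 with 1 library left out, and all genes called, 2338, became 3963 by DESeq2 and ranged from 1143 to 3205 with 1 library left out. Between paw and back Merkel cells the count of 0 members became 6 with no filter, 6 by DESeq2 and 0 to 1 with 1 library left out, and of all genes 28 became 452, 512 and 0 to 40. Between IFE cells 0 members became 2 with no filter, and 0 genes became 120 with no filter, 84 by DESeq2, 1 with the replicate block and 0 to 15 with 1 library left out. For the interaction 0 members became 5 with no filter, 2 by DESeq2 and 0 to 1 with 1 library left out. Over all genes the interaction count of 0 became 1 with median-ratio scaling, 305 with no filter, 273 by DESeq2, 4 with the replicate block and 0 to 5 with 1 library left out. For Kcnn3 in back skin the log2 fold change ran from -6.74 to 1.03 with 1 library left out, and the reversal came from leaving out back IFE library 2. The causes were not tested.

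The share of summed level held by members, 0.14%, 0.0304%, 0.226% and 0.0274% as FPKM in paw Merkel, paw IFE, back Merkel and back IFE cells, was 0.267%, 0.11%, 0.363% and 0.0967% as CPM, and 0.0263% in paw IFE and 0.0256% in back IFE cells over channel subunits only. Limma-trend moved the median of all genes in the paw to -0.14. Libraries of the same number in different groups correlated at -0.0427 to 0.0845 in their deviations from the group mean. The labels do not say whether such libraries share animals or a sort, and these values cannot decide it. The replicate block called 17 members in the paw (adding Kcnj2, losing Kcnip2) and 24 in back skin (adding Kcnd3, losing Kcna2, Kcnk5 and Kcnn3). Genes with a few counts in a group, such as Kcnj3 in the paw or Kcnh5, are limited by depth.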

Other observations

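Several members were high in 1 library of a group and near 0 in its partner, besides Kcng3, Kcnn3, Kcnma1 and Kcnj16. Kcnf1, a modifier subunit, measured 3.83 and 0 CPM in paw Merkel libraries, against 0.0407 and 0.740 CPM in paw IFE libraries, and 0 CPM in both back Merkel libraries, against 6.30 and 0.801 CPM in back IFE libraries. Kcnab2 measured 26.2 and 20.9 CPM in back Merkel libraries, against 13.5 and 0.916 CPM in back IFE libraries. Kcnj12, a strong inward rectifier, measured 3.64 and 0 CPM in paw Merkel libraries, against 0 and 0.296 CPM in paw IFE libraries. Kcnrg measured 2.05 and 29.1 CPM in back Merkel libraries, against 0.760 and 3.70 CPM in back IFE libraries. The uneven libraries were not the same ones from gene to gene, and edgeR's quasi-likelihood test after the filter on low counts called none of these 4 genes. Without that filter it called Kcnab2 in the paw, and DESeq2 called Kcnab2 in the paw and Kcnf1 in back skin.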
